A study of Homo sapiens with 8 samples.

Results

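*LGR5*, *ASCL2*, *AXIN2*, *RNF43*, *ZNRF3*, *EPHB2*, *SOX9*, *TCF7*, *LEF1* and *TCF7L2* are genes of the Wnt response and of the stem cells at the base of the intestinal crypt. These 10 genes, of 20090 protein-coding genes, were followed by name, through the peaks called within 1000 bp of any of their annotated transcription start sites (GENCODE release 44 on GRCh37). HCT8 cells, a human ileocecal adenocarcinoma line, were kept for 5 h with membrane vesicles (MVs, or vesicles) of *Escherichia coli* MC1061, a laboratory strain, or of *Vibrio cholerae* C6706, a pathogenic strain, or were mock-treated. The labels call the control cells non treated. H3K4me3 ChIP sequencing, which maps a histone mark of active promoters, and FAIRE sequencing, which maps nucleosome-free DNA, gave 1 library per treatment and assay, thus 6 peak lists. The study asked whether MVs change the chromatin of the cells at the start sites of genes. All groups are the same cell line and no other agent separates them by their labels.

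Wnt ligands bind Frizzled and LRP receptors and keep β-catenin from being destroyed. β-catenin then enters the nucleus and binds TCF and LEF proteins on the DNA of target genes. In the intestine this signal keeps crypt stem cells dividing, and its targets include both stem cell genes and brakes that act back on the receptors. Most colorectal carcinomas carry a mutation that keeps the pathway on.

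With 1 library per treatment there was no replicate check, no difference was tested and no p-value is given. A gene was counted as higher or lower past 1.5-fold (0.585 on the log2 scale). The same count over all genes stands beside it, except where stated. Square brackets hold exact 95% Poisson intervals, which cover counting error only. The H3K4me3 libraries held 3463875 (mock), 10528314 (*E. coli* vesicles) and 13011839 tags (*V. cholerae* vesicles), and 38.6%, 53.9% and 56.1% of them lay in called peaks. The FAIRE libraries held 14474665, 7888670 and 12077180 tags, with 7.12%, 37.3% and 13.9% in peaks, so the *E. coli* FAIRE library stood apart from the other two. Of 8 epithelial and intestinal markers 7, 8 and 7 had an H3K4me3 peak (mock, *E. coli* vesicles, *V. cholerae* vesicles), the exception being *CDX1*. Of 11 markers of blood, stromal, muscle, nerve and liver cells 1, 3 and 3 did, namely *CD14* and, with MVs of either kind, *COL1A1* and *RBFOX3*, and their summed normalized tag counts were 101.0, 161.5 and 198.3 against 3089, 5174 and 5426 for the epithelial list. *PTPRC*, *CD3E*, *VWF*, *MYOD1* and *ALB*, among others, had no H3K4me3 peak.

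At the main start site (the Ensembl canonical transcript) of 3 of the 10 genes, *AXIN2*, *ZNRF3* and *TCF7L2*, the mock H3K4me3 list left the start outside every called peak while the lists of both MV treatments covered it. Among the 11448 genes with a peak near that site in all 3 lists, 9.02% had this pattern. The bases just upstream of the sites of *AXIN2* and *TCF7L2* are shown because no called mock H3K4me3 peak touches any of them, whereas the peaks with MVs of either kind cover all 300. *RNF43* is shown for contrast, as the gene that differed most from the other members below. Sequences are from GRCh37, read 5′ to 3′ on the gene's strand and end at the base before the main start site, except for *RNF43*, where the 61 bases nearest to the site are part of an annotated exon and are left out. Capitals mark each CG dinucleotide.
AXIN2: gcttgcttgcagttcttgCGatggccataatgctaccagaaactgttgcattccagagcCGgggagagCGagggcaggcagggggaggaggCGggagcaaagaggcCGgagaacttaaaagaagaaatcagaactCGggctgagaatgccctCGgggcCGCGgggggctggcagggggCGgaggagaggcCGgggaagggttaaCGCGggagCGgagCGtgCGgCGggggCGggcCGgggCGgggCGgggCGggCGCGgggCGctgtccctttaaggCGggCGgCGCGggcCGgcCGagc
TCF7L2: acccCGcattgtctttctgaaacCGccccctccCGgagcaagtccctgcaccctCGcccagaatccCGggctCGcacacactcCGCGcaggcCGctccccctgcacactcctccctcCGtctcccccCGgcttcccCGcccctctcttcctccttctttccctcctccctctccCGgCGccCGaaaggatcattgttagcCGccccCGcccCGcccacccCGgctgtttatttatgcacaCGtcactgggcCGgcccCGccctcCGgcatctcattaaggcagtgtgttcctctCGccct
RNF43: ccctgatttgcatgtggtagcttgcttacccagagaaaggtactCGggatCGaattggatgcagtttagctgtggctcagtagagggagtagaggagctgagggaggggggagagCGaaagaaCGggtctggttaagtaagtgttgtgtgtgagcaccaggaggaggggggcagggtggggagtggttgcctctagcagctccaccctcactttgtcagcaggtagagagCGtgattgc

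The upstream window of *AXIN2* (chr17:63557767-63558066, minus strand) held 31 CG dinucleotides and 70.3% G and C. That of *TCF7L2* (chr10:114709706-114710005, plus strand) held 24 and 67.0%. The 239 bases of *RNF43* (chr17:56494957-56495195, minus strand) held 5 CG dinucleotides and 55.6% G and C, against a median of 25 dinucleotides per 300 bases over the 12118 genes with a mock H3K4me3 peak. Over all genes, the 1033 with a start outside the mock peaks and inside those with MVs had a median upstream GC content of 70.3%, and the other 10415 had 64.7%. The mock library was also the shallowest, and the part of depth and of base composition in these gaps was not tested. The core of the TCF/LEF site, searched on both strands as CTTTG with A or T at each of the next 2 positions, was in 0 of 10 upstream windows of 300 bases, against 11.4% of 19812 genes with a main start site and 8.72% of the 12118. This says only that these letters were not in these windows.

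All 10 genes had an H3K4me3 peak at a start site in each list, where 60.4% (mock), 64.3% (*E. coli* vesicles) and 65.2% (*V. cholerae* vesicles) of all genes had one. Values below are the authors' normalized tag counts, in tags per 10000000 of the library, summed over a gene's peaks. Against mock, 7 of the 10 genes were at least 1.5-fold higher with *E. coli* vesicles, where 42.6% of 12087 genes were, and 8 of 10 with *V. cholerae* vesicles, where 53.4% of 12095 were. At least 1.5-fold lower were 0 of 10 in both comparisons, where 0.422% and 0.637% of all genes were. When libraries were scaled to the tags in their peaks, 3 of 10 (*ASCL2*, *EPHB2* and *TCF7*) were higher with *E. coli* vesicles, against 12.2% of all genes, and 4 of 10 (the same genes and *LEF1*) with *V. cholerae* vesicles, against 21.7%. *RNF43* was then 1.5-fold lower with *V. cholerae* vesicles, at -0.70 [-0.87 to -0.53], where 7.19% of all genes were. The median log2 ratio of the 10 genes was 0.89 with *E. coli* vesicles and 0.97 with *V. cholerae* vesicles, against 0.52 and 0.63 over all genes. These comparisons share the mock library. In bulk cultures, the mark in more cells and more of it per cell cannot be told apart.

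**Figure D1:**
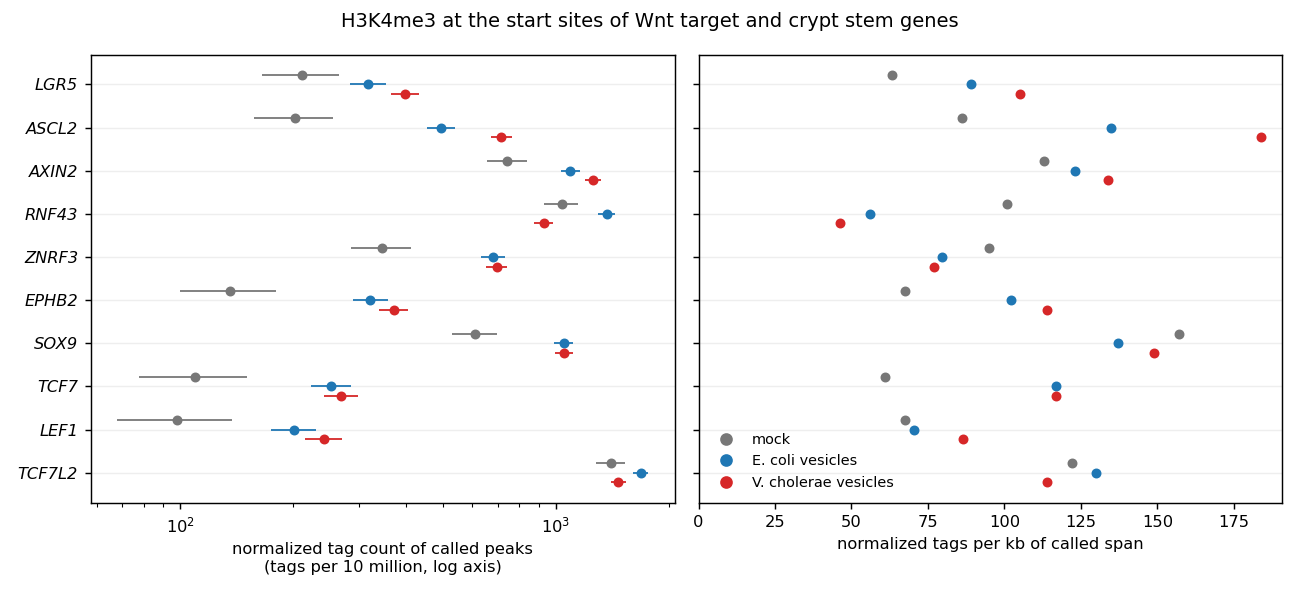
H3K4me3 at the start sites of the 10 genes in the mock (grey), *E. coli* vesicle (blue) and *V. cholerae* vesicle (red) libraries, 1 library each. Left, normalized tag count in tags per 10000000, log axis, with exact 95% Poisson intervals; right, the same per kb of called span. On the left the mock point is the lowest of the 3 for 9 genes, the exception being *RNF43*, although scaled to the tags in peaks *TCF7L2* would be highest in mock, and on the right *RNF43*, *ZNRF3* and *SOX9* have their highest point in mock. At *RNF43*, *ZNRF3* and *SOX9*, mock peaks too far from a start site to be counted lie where the lists with MVs had counted peaks.

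*LGR5* (chr12:71833578-71980090, plus strand) encodes a receptor for R-spondins and marks crypt stem cells. Its single H3K4me3 peak held a normalized tag count of 210.7 in mock, 316.3 with *E. coli* vesicles and 396.6 with *V. cholerae* vesicles. The mock value lay below both others. The log2 ratio to mock was 0.59 [0.22 to 0.97] with *E. coli* vesicles, just past the 1.5-fold mark, and 0.91 [0.56 to 1.29] with *V. cholerae* vesicles. The span hardly moved, from 3341 bp to 3550 and 3767 bp. This peak also lies within 1000 bp of an annotated start site of *TSPAN8*, so the mark cannot be given to *LGR5* alone.

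*ASCL2* (chr11:2289728-2291818, minus strand), a transcription factor that maintains the crypt stem cell state, had the largest ratios of the 10 genes in each comparison. Its peak held 202.1 in mock, 495.8 with *E. coli* vesicles and 716.3 with *V. cholerae* vesicles. The 3 intervals did not overlap. The log2 ratios were 1.3 [0.93 to 1.68] and 1.83 [1.47 to 2.20] against mock, and 0.53 [0.37 to 0.69] between *V. cholerae* and *E. coli* vesicles. The peak was 2348, 3676 and 3898 bp long. Per kb of called span its level went from 86.1 in mock to 135 and 184 normalized tags, from the 25th to the 41.9th and 65.0th percentile of the genes with a peak.

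The brakes of the pathway behaved unequally. *AXIN2* (chr17:63524681-63557766, minus strand), a scaffold of the complex that destroys β-catenin and a direct Wnt target, had 741.9 in mock, 1094 with *E. coli* vesicles and 1255 with *V. cholerae* vesicles. The log2 ratios to mock were 0.56 [0.36 to 0.76], short of 1.5-fold, and 0.76 [0.57 to 0.95]. The mock peak began 798 bp downstream of the main start site and ran to 7347 bp. The peaks with MVs ran from -898 to 7467 bp and from -1011 to 7859 bp of that site, so the lists differed mainly at the start site end. In the FAIRE list of the same mock cells, by contrast, a peak of 500 bp lay over the main start of *AXIN2*, from -241 to 259 bp.

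*ZNRF3* (chr22:29279560-29453476, plus strand) encodes a membrane E3 ubiquitin ligase that removes Frizzled from the cell surface. It had 343.6 in mock, 680.9 with *E. coli* vesicles and 696.3 with *V. cholerae* vesicles. Both ratios to mock were close to a doubling on the linear scale, at log2 values of 0.99 [0.71 to 1.28] and 1.02 [0.74 to 1.31]. In mock the called signal was split by a gap from -493 to 211 bp of the main start, which the single peaks of 6042 and 5751 bp with MVs bridged. Its total span was 3612, 8550 and 9035 bp, and per kb the order turned round, with 95.1 in mock, 79.6 with *E. coli* vesicles and 77.1 with *V. cholerae* vesicles. For the peak at the main start alone the values per kb were close, at 104, 102 and 108. Mock peaks of 17.3 and 34.6 overlap counted peaks of both MV lists but lie too far from a start site to be counted. The sums, spans and values per kb of *ZNRF3* thus do not cover the same stretches.

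*RNF43* (chr17:56431037-56494956, minus strand) encodes the sister ligase of *ZNRF3* and was the exception among the 10 genes. Its peaks held 1036 in mock, 1369 with *E. coli* vesicles and 928.3 with *V. cholerae* vesicles, so the *V. cholerae* value was the lowest of the 3. The log2 ratio to mock was 0.40 [0.23 to 0.57] with *E. coli* vesicles, which turned to -0.08 [-0.25 to 0.09] when libraries were scaled to the tags in their peaks, and -0.16 [-0.33 to 0.02] with *V. cholerae* vesicles. Between *V. cholerae* and *E. coli* vesicles it was -0.56 [-0.67 to -0.45], at percentile 0.971 of 12765 genes. *RNF43* thus lay among the lowest 1% of genes in that comparison. It was short of 1.5-fold as deposited and past it when scaled to the tags in peaks, at -0.62 [-0.73 to -0.51].

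The peak at the main start site of *RNF43* held 955.6 in mock, 1100 with *E. coli* vesicles and 639.4 with *V. cholerae* vesicles. This gave a log2 ratio of -0.78 [-0.91 to -0.65] between *V. cholerae* and *E. coli* vesicles, and -0.58 [-0.77 to -0.39] between *V. cholerae* vesicles and mock. The peak ran 8586 bp in mock, 15988 bp with *E. coli* vesicles and 9823 bp with *V. cholerae* vesicles. Per kb it held 111, 68.8 and 65.1, so the values with MVs of either kind lay close together and below mock. Where the *E. coli* list had a single peak up to 14448 bp downstream, the mock list had further separate peaks of 1540, 748 and 788 bp between 8085 and 13267 bp, too far from a start site to be counted. Peaks at internal start sites of *RNF43* held 80.8, 268.8 and 288.9, an order opposite to that at the main start for *V. cholerae* vesicles against mock. These sums do not cover the same stretches. Mock peaks of 34.6, 60.6 and 52.0 overlap the *V. cholerae* peaks at internal starts but lie too far from a start site to be counted. In each list a peak counted for *RNF43* also lies within 1000 bp of a start of ENSG00000285897, an unnamed gene of the annotation.

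*RNF43* was unusual in its breadth. Its counted span of 10227 bp in mock, 24346 bp with *E. coli* vesicles and 20135 bp with *V. cholerae* vesicles lay at or above the 99.7th percentile of genes with a peak in each list. Per kb it had 101, 56.2 and 46.1 normalized tags, the lowest of the 10 genes in both MV lists. In the rest of the gene and 10000 bp on either side, 16, 10 and 10 more H3K4me3 peaks held 1380, 1050 and 827.9 normalized tags. There too the mock value was the highest and the *V. cholerae* value the lowest, but these sums do not cover the same stretches. Mock peaks of 112.6, 49.1 and 34.6 included here lie where the *E. coli* list had its single peak at the main start.

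**Figure D2:**
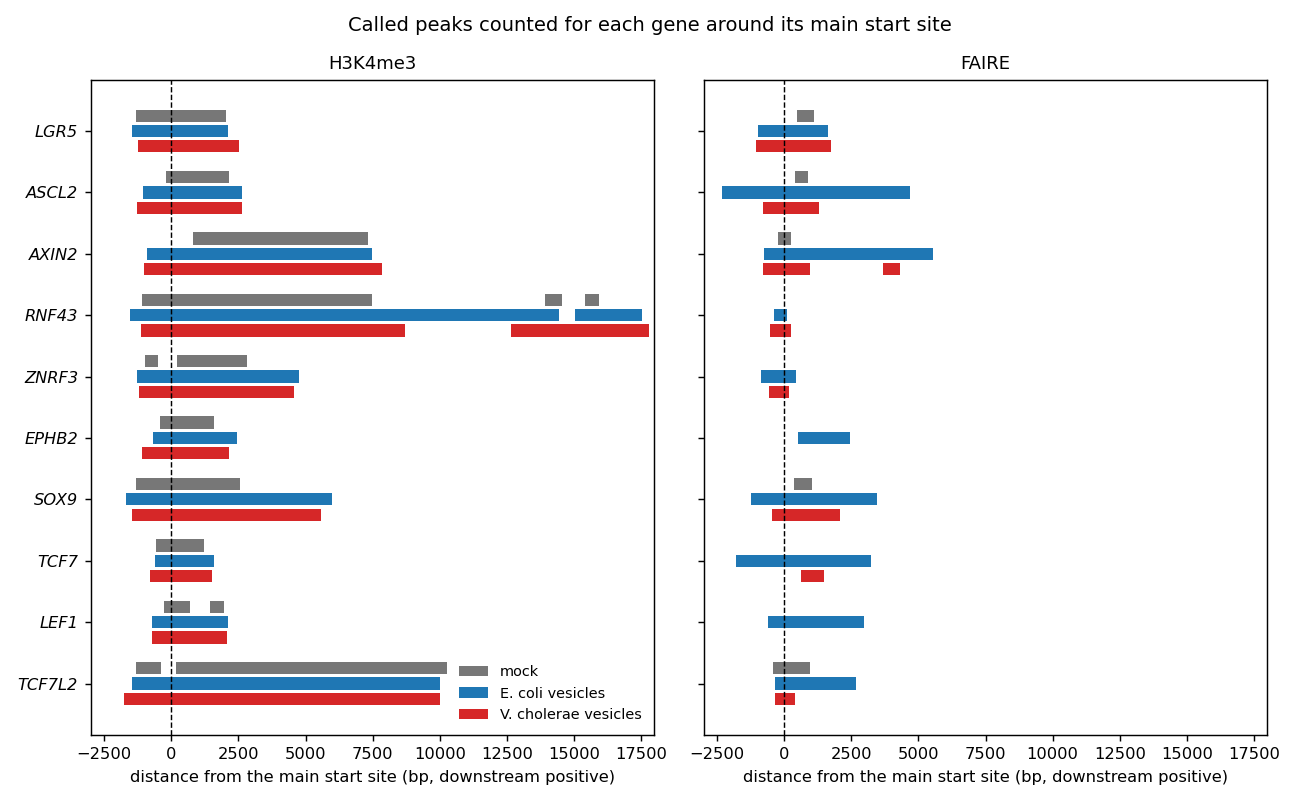
Called peaks counted for each gene, by distance in bp from its main start site (dashed line, downstream positive), for H3K4me3 (left) and FAIRE (right) in the mock (grey), *E. coli* vesicle (blue) and *V. cholerae* vesicle (red) lists; peaks further away are not drawn. In the mock H3K4me3 list the start sites of *AXIN2*, *ZNRF3* and *TCF7L2* lie outside the bars, and the *RNF43* bar of the *E. coli* list extends to 14448 bp.

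*EPHB2* (chr1:23037332-23247993, plus strand) encodes a receptor tyrosine kinase that keeps cells in their place along the crypt. Its H3K4me3 peak held 135.7 in mock, 321.0 with *E. coli* vesicles and 370.4 with *V. cholerae* vesicles. The mock value was the lowest, with log2 ratios of 1.24 [0.80 to 1.72] and 1.45 [1.01 to 1.91]. *SOX9* (chr17:70117161-70122557, plus strand) encodes a transcription factor of crypt stem and Paneth cells. It had 609.1 in mock, and the values with *E. coli* vesicles (1049) and *V. cholerae* vesicles (1052) did not differ beyond counting error, at a log2 ratio of 0.00 [-0.11 to 0.12]. Against mock both were 0.78 to 0.79 higher on the log2 scale, beside a span that grew from 3875 bp to 7654 and 7063 bp. Per kb of counted span, *SOX9* had the highest mock level of the 10 genes, 157 normalized tags, and 137 and 149 with MVs. A further mock peak of 60.6 over 1635 bp, from 3747 to 5382 bp, was too far from the start site to be counted. The peaks with MVs cover that stretch, so the sums, spans and values per kb of *SOX9* do not compare the same bases.

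The last group held the DNA-binding partners of β-catenin. *TCF7* (chr5:133450372-133487556, plus strand), which encodes TCF1, had 109.7 in mock, 252.7 with *E. coli* vesicles and 268.2 with *V. cholerae* vesicles. *LEF1* (chr4:108968701-109090112, minus strand) had 98.2, 200.4 and 241.3. At both genes the mock peaks rested on few tags (38 and 34), and the log2 ratios to mock were wide accordingly. They were 1.20 [0.71 to 1.73] and 1.29 [0.80 to 1.81] at *TCF7*, and 1.03 [0.50 to 1.60] and 1.3 [0.78 to 1.85] at *LEF1*. At *TCF7* the span was nearly the same (1796, 2167 and 2291 bp) and the tags per kb went from 61.1 to 117 with MVs of either kind. At *LEF1* the tags per kb were 67.4, 70.3 and 86.5, while the span went from 1457 bp in 2 pieces to 2849 and 2790 bp in 1 piece.

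*TCF7L2* (chr10:114710006-114927437, plus strand) encodes TCF4, the main partner of β-catenin in the intestinal epithelium. It had the highest normalized tag count of the 10 genes in each list, 1400 in mock, 1682 with *E. coli* vesicles and 1468 with *V. cholerae* vesicles, at or above the 99.3th percentile of genes with a peak. Its log2 ratios to mock were 0.26 [0.12 to 0.41] and 0.07 [-0.08 to 0.21], and both turned negative, to -0.22 [-0.36 to -0.07] and -0.47 [-0.62 to -0.33], when scaled to the tags in peaks. The total span hardly differed (11504, 12896 and 12909 bp), but the mock signal had a gap from -401 to 164 bp of the main start. In the FAIRE list of mock cells that gap was filled by a peak from -415 to 945 bp.

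Between the MVs of both species, the H3K4me3 counts summed over each gene's peaks differed by less than 1.5-fold at all 10 genes as deposited. Against *E. coli* vesicles, 0 of 10 genes were at least 1.5-fold higher with *V. cholerae* vesicles, where 6.31% of 12765 genes were, and 0 of 10 were 1.5-fold lower, where 0.901% were. Scaled to the tags in peaks, 1 of 10 (*RNF43*) was 1.5-fold lower, where 1.04% of genes were. The median log2 ratio was 0.14, against 0.12 over all genes. Per kb, too, 0 of 10 were past 1.5-fold, where 4.18% of all genes were higher and 0.619% lower. *ASCL2* was the highest and *RNF43* the lowest. The interval excluded 0 on the upper side for 5 genes (*LGR5*, *ASCL2*, *AXIN2*, *EPHB2* and *LEF1*), as it did for 4769 of the 12765 genes. It did so on the lower side for 2 (*RNF43* and *TCF7L2*), where 1201 of the 12765 did. The intervals of *ZNRF3* with 0.03 [-0.11 to 0.18], *SOX9* and *TCF7* with 0.09 [-0.15 to 0.32] held 0. Scaled to the tags in peaks, *LGR5*, *ASCL2* and *AXIN2* kept an interval above 0, while those of *EPHB2* (-0.06 to 0.35) and *LEF1* (-0.05 to 0.47) held it.

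**Figure D3:**
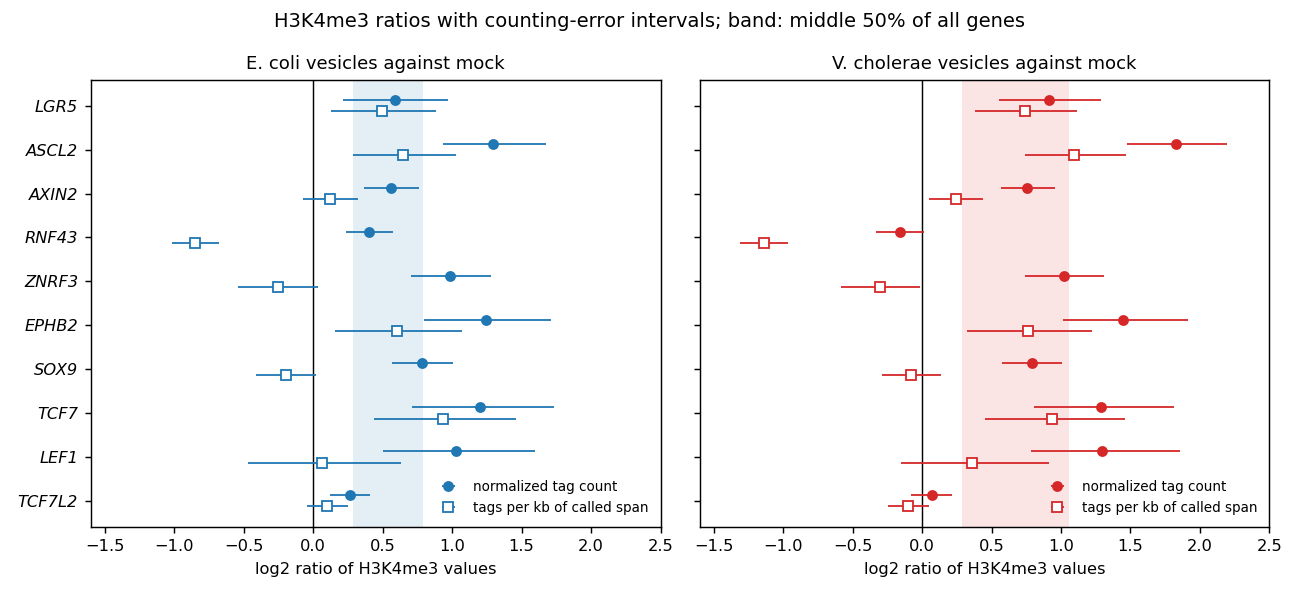
Log2 ratios of H3K4me3 values to mock for *E. coli* vesicles (left) and *V. cholerae* vesicles (right) at the 10 genes. Filled circles are normalized tag counts and open squares tags per kb of called span, with exact 95% Poisson intervals (counting error only); the band spans the middle 50% of all genes for normalized tag counts. Scaling to the tags in peaks moves all points left by 0.48 and 0.54, which puts the circles of *RNF43* (left) and *TCF7L2* and the squares of *AXIN2*, *LEF1* and *TCF7L2* below 0.

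Part of the higher sums came with longer called spans. The median log2 ratio of the span to mock was 0.64 with *E. coli* vesicles and 0.71 with *V. cholerae* vesicles at the 10 genes, against 0.25 and 0.25 over all genes. Per kb of called span, the median log2 ratio of the 10 genes was 0.11 with *E. coli* vesicles and 0.30 with *V. cholerae* vesicles, against 0.24 and 0.33 over all genes. Scaled to the tags in peaks, the median of the 10 genes turned to -0.37 and -0.24, and that of all genes turned negative as well. With *E. coli* vesicles 3 genes, *ASCL2*, *EPHB2* and *TCF7*, were at least 1.5-fold higher per kb, where 15.4% of all genes were, and 1, *RNF43*, was 1.5-fold lower, where 2.1% were. With *V. cholerae* vesicles 4 were higher, the same genes and *LGR5* (28.7% of all genes), and again *RNF43* was lower (2.44%). Scaled to the tags in peaks, 0 of 10 were 1.5-fold higher per kb with MVs of either kind. *ASCL2*, *EPHB2* and *TCF7* then stood at 0.17, 0.12 and 0.45 with *E. coli* vesicles and at 0.55, 0.22 and 0.40 with *V. cholerae* vesicles. At least 1.5-fold lower were then *RNF43* (-1.33 and -1.68), *ZNRF3* (-0.74 and -0.85), *SOX9* (-0.68 and -0.62) and, with *V. cholerae* vesicles, *TCF7L2* (-0.64). This scaling shifts the ratios of all genes alike, by -0.48 and -0.54. The share of all genes past 1.5-fold per kb under it was not counted, so these calls do not set the 10 genes apart. At *RNF43*, *ZNRF3* and *SOX9*, mock peaks too far from a start site to be counted also lie where the lists with MVs had counted peaks. At *RNF43* the log2 ratios per kb were -0.85 [-1.02 to -0.68] and -1.14 [-1.31 to -0.96], at percentiles 0.629 and 0.232 of all genes. Across the 10 genes the median level per kb was 90.6 in mock, 109 with *E. coli* vesicles and 114 with *V. cholerae* vesicles, below the medians of all genes with a peak, which were 124, 149 and 162.

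The ratios ran with the base composition of the peaks. The GC content of the called mock H3K4me3 peaks was 37.1% at *RNF43* and 45.6% at *TCF7L2*, the genes with the lowest ratios to mock. It was 69.4% at *ASCL2*, 70.8% at *TCF7* and 71.0% at *EPHB2*, the genes with the 3 highest ratios with *E. coli* vesicles. Over all genes, the median log2 ratio with *E. coli* vesicles was 0.22, 0.41, 0.61 and 0.95 from the lowest to the highest of 4 equal classes by GC content, and with *V. cholerae* vesicles it was 0.13, 0.46, 0.79 and 1.29. The classes held 2, 2, 2 and 4 of the 10 genes. Of the intervals of the 10 genes, those of *ZNRF3* with either kind of MVs, *RNF43* with *E. coli* vesicles, and *ASCL2* and *LGR5* with *V. cholerae* vesicles lay above the median of their class. Those of *RNF43* and *SOX9* with *V. cholerae* vesicles lay below it, and the others held it. The study's methods name either of 2 library kits for ChIP, and which library had which is not given in the sources used here. The part of GC content in these ratios was not tested.

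**Figure D4:**
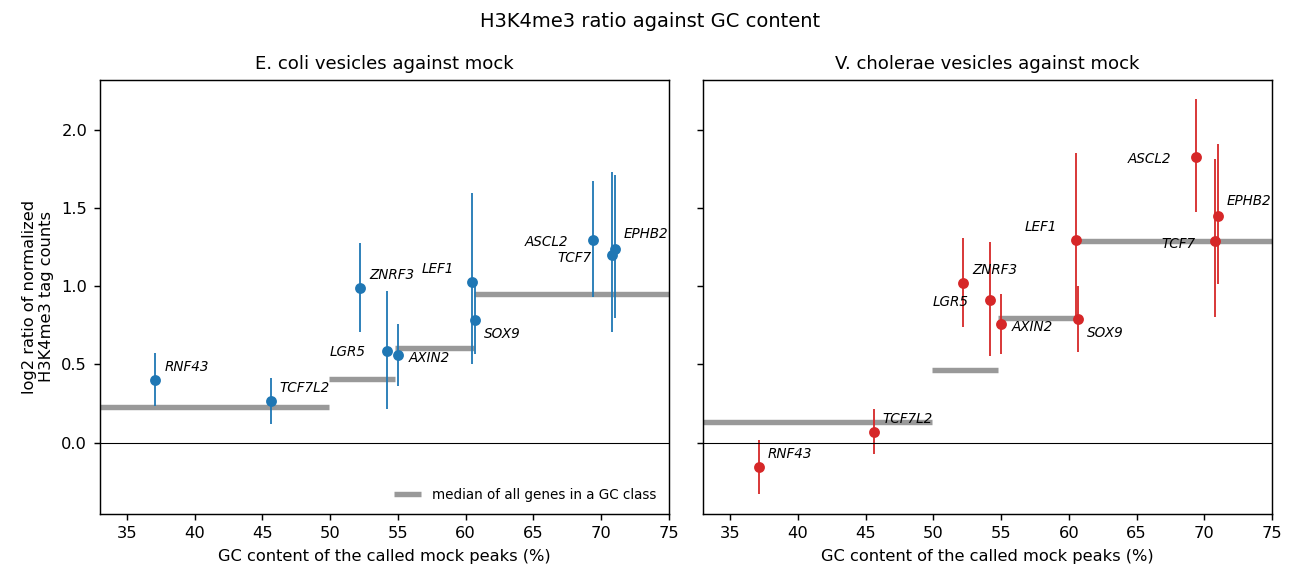
Log2 ratio of normalized H3K4me3 tag counts to mock against the GC content (%) of the called mock peaks for the 10 genes, with exact 95% Poisson intervals; grey bars are the medians of all genes in each of 4 classes by GC content. The genes at 37.1% and 45.6% GC have the lowest ratios, and scaling to the tags in peaks would lower all points by 0.48 (left) and 0.54 (right), putting *RNF43* and *TCF7L2* below 0.

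In the FAIRE lists, 7 of the 10 genes had a peak at a start site in mock, 10 with *E. coli* vesicles and 10 with *V. cholerae* vesicles, where 41.7%, 77.8% and 62.4% of all genes did. *RNF43*, *ZNRF3* and *LEF1* had none in mock. Of the 8 epithelial and intestinal markers 6, 8 and 8 had one, and of the 11 markers of other cell types 5, 7 and 5. Their summed normalized FAIRE tag counts were 86.36, 1986 and 858.4 for the epithelial list and 131.9, 621.1 and 104.4 for the other. In mock, FAIRE thus gave the higher sum at the markers of other cell types. A called FAIRE peak lay over the main start site of 2 genes in mock, *AXIN2* and *TCF7L2*, of 9 with *E. coli* vesicles and of 7 with *V. cholerae* vesicles. The comparison of *V. cholerae* vesicles with mock does not use the *E. coli* library and is given first.

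With *V. cholerae* vesicles, 6 of the 7 genes with a peak in both lists were at least 1.5-fold higher than in mock, where 75% of 7090 genes were. Scaled to the tags in peaks, 4 of 7 were higher and 1 lower, where 43.8% and 19.9% of genes were. Scaled to the median gene, 4 were higher and 2 lower, where 28.2% and 31% of genes were. As deposited, their median log2 ratio was 2.65 against 1.38 over all genes. The normalized FAIRE tag count of *AXIN2* was 8.29 in mock and 87.7 with *V. cholerae* vesicles, a log2 ratio of 3.40 [2.54 to 4.4] at the 97.6th percentile of genes. These sums do not cover the same stretches. A mock peak of 19.3, too far from a start site to be counted, overlaps a counted *V. cholerae* peak of 24.0. For the peak at the main start of *AXIN2* alone the log2 ratio was 2.43 [1.51 to 3.47]. *ASCL2* had 8.98 and 64.6 (2.85 [1.99 to 3.82]), and *SOX9* 10.4 and 68.7 (2.73 [1.93 to 3.63]). *LGR5* had 15.9 and 99.4, which is 2.65 [1.99 to 3.36] on the log2 scale. Its FAIRE peaks with MVs of either kind, but not the mock peak, also lie within 1000 bp of a start site of *TSPAN8*. *AXIN2*, *ASCL2*, *SOX9* and *LGR5* stood at or above the 88.9th percentile of all genes, although each mock value rested on 12 to 23 tags.

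The other 3 genes with a mock FAIRE peak differed less. *TCF7* had 13.1 in mock and 30.6 with *V. cholerae* vesicles, a log2 ratio of 1.22 [0.39 to 2.10] that turned to -0.18 when libraries were scaled to the median gene. Its counted mock peak lay at an internal start, from 23350 to 24140 bp downstream of the main one. Of the *V. cholerae* value, 20.7 lay near the main start, so the ratio sets different sites against each other. *TCF7L2* had 64.3 in 5 peaks and 107.7 in 6 peaks, a ratio of 0.74 [0.35 to 1.14] that turned to -0.22 when scaled to the tags in peaks. *EPHB2* had 24.1 and 25.7, with a ratio of 0.09 [-0.66 to 0.83] that turned to -0.88 [-1.63 to -0.14], past 1.5-fold, when scaled to the tags in peaks. In both lists the counted peaks of *EPHB2* lay only at internal start sites, far into the gene. Nearer its main start, a mock peak of 18.0 (1670 to 2637 bp) and a *V. cholerae* peak of 32.3 (1439 to 2664 bp) were too far from a start site to be counted. At *RNF43* and *ZNRF3* the *V. cholerae* list had peaks over the main start (47.2 at each) where mock had none. At *LEF1* it had only a weak peak of 11 tags at an internal start, from 96506 to 97006 bp downstream of the main one.

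In the *E. coli* FAIRE library, with its higher share of tags in peaks, all 7 genes with a mock peak were at least 1.5-fold higher than in mock, as were 97.2% of 7990 genes. The median log2 ratio was 4.24 against 3.07 over all genes. That median is the ratio of *TCF7*, which like *EPHB2* had counted mock peaks only at internal start sites. The normalized tag counts were 399.3 at *ASCL2*, 381.5 at *AXIN2*, 248.4 at *TCF7*, 235.8 at *SOX9* and 234.5 at *ZNRF3*. They were 225.6 at *TCF7L2*, 190.2 at *RNF43*, 139.4 at *LGR5*, 131.9 at *LEF1* and 104.0 at *EPHB2*. *ASCL2* with 5.47 [4.68 to 6.40] and *AXIN2* with 5.52 [4.7 to 6.49] had the largest log2 ratios to mock, at the 98.4th and 98.6th percentile. The long *E. coli* peaks there also overlap mock peaks that lie too far from a start site to be counted. Those mock peaks held 13.8, 10.4 and 15.2 at *ASCL2* and 19.3 at *AXIN2*, so the sums do not cover the same stretches. The same holds at *SOX9* (13.8), *TCF7* (8.98) and *EPHB2* (18.0). *TCF7L2* with 1.81 [1.44 to 2.19] and *EPHB2* with 2.10 [1.52 to 2.72] had the smallest, and both turned negative when scaled to the tags in peaks (-0.58 and -0.29).

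Against *E. coli* vesicles, 8 of the 10 genes were at least 1.5-fold lower in FAIRE with *V. cholerae* vesicles, where 91.8% of 12109 genes were. Their median log2 ratio was -1.90 against -1.59 over all genes, and all 10 were below 0. Scaled to the tags in peaks, 3 of 10 turned positive, *LGR5* to 0.94 [0.55 to 1.32], *RNF43* to 0.88 [0.55 to 1.22] and *TCF7L2* to 0.36, and 5 of 10 were 1.5-fold lower, where 30.6% of genes were. *LEF1*, whose only counted *V. cholerae* peak was the internal one, was the lowest at -3.86 [-4.90 to -2.96], and *TCF7* followed at -3.02 [-3.57 to -2.51]. *LGR5* at -0.49 [-0.87 to -0.10] and *RNF43* at -0.54 [-0.87 to -0.21] differed least as deposited, and after that scaling they were the 2 genes at least 1.5-fold higher, where 14.4% of all genes were. *RNF43* was thus near the top of all genes in this FAIRE comparison, at the 92.6th percentile, where its H3K4me3 ratio was near the bottom.

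**Figure D5:**
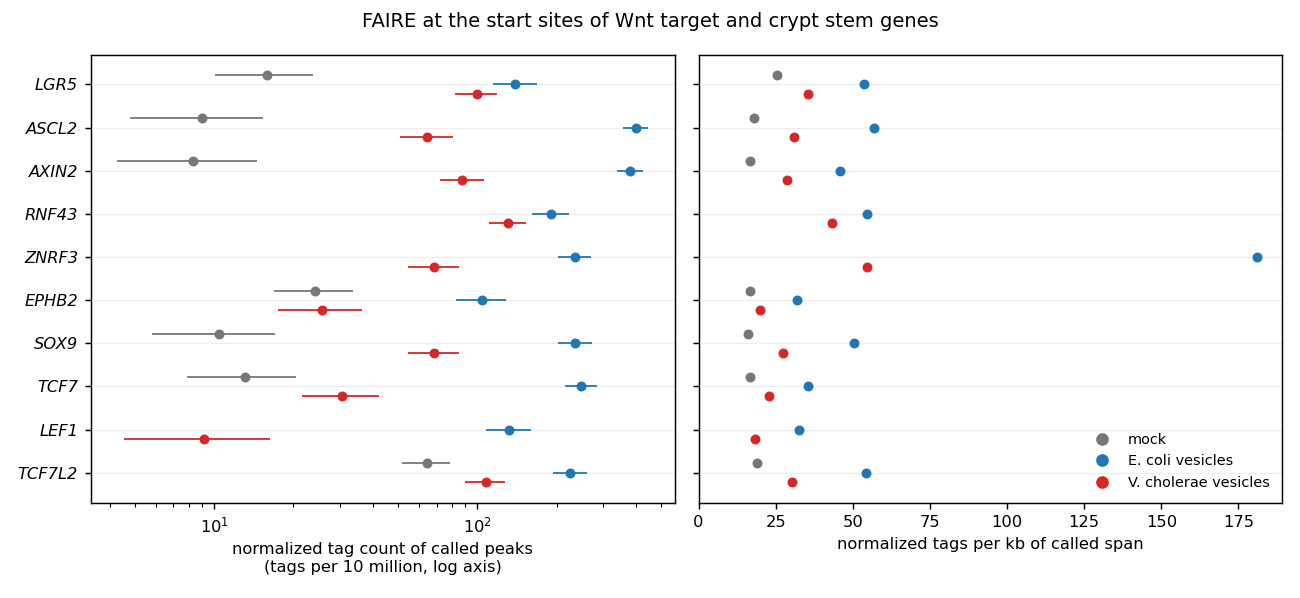
FAIRE at the start sites of the 10 genes in the mock (grey), *E. coli* vesicle (blue) and *V. cholerae* vesicle (red) libraries, 1 library each. Left, normalized tag count in tags per 10000000, log axis, with exact 95% Poisson intervals; right, the same per kb of called span. Genes with no called mock peak (*RNF43*, *ZNRF3*, *LEF1*) have no grey point, and the *E. coli* point is the highest for each gene, although scaled to the tags in peaks *EPHB2* and *TCF7L2* would be lower there than in mock, and *LGR5*, *RNF43* and *TCF7L2* lower there than with *V. cholerae* vesicles.

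Per kb of called span the FAIRE levels of the 10 genes lay closer together in the mock and *V. cholerae* lists, but not with *E. coli* vesicles. In mock they ran from 15.9 at *SOX9* to 25.4 at *LGR5*, with a median of 16.6 against 19.1 over all genes. With *V. cholerae* vesicles they ran from 18.2 at *LEF1* to 54.6 at *ZNRF3* (median 29.5 against 29.9), and with *E. coli* vesicles from 31.9 at *EPHB2* to 181 at *ZNRF3* (median 52.1 against 48.3). At least 1.5-fold higher per kb than in mock were 7 of 7 genes with *E. coli* vesicles (89.6% of all genes) and 4 of 7 with *V. cholerae* vesicles (45.7%). Of those 4 only *TCF7L2* lay beyond counting error, where 2588 of 7090 genes were higher beyond it. Between the latter and *E. coli* vesicles, 9 of 10 were lower (69.7%) and 0 higher (0.0826%). *ZNRF3* with *E. coli* vesicles, a peak of 1299 bp over the main start, was at the 98.9th percentile of genes. The median log2 ratio per kb to mock was 1.47 with *E. coli* vesicles and 0.66 with *V. cholerae* vesicles, against 1.28 and 0.53 over all genes. Both medians of the member genes turned negative (-0.92 and -0.31) when scaled to the tags in peaks. That scaling shifts all genes alike, by -2.39 and -0.97, so the medians over all genes turn negative too.

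Away from the start sites, in the genes and 10000 bp on either side, the lists held 48 (mock), 55 (*E. coli* vesicles) and 47 (*V. cholerae* vesicles) further H3K4me3 peaks. *ZNRF3* held 17, 18 and 12 of these and *RNF43* 16, 10 and 10, while *LGR5*, *ASCL2* and *TCF7* held none in any list. FAIRE gave 97, 115 and 118 further peaks, of which 37, 53 and 42 lay in or near *EPHB2*. Of the further FAIRE peaks, 7, 25 and 26 overlapped an H3K4me3 peak of the same treatment.

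The rest of the pathway was read from 95 further genes in 6 lists by role. Of 60 with an H3K4me3 peak in mock and with *E. coli* vesicles, 40 were at least 1.5-fold higher than in mock (66.7% against 42.6% of all genes), with a median log2 ratio of 0.75. Of 61 with *V. cholerae* vesicles, 45 were (73.8% against 53.4%), with a median of 1.08. None was 1.5-fold lower in either comparison. Per kb, 15 and 24 of them were 1.5-fold higher, where 15.4% and 28.7% of all genes were, and 3 and 2 lower, where 2.1% and 2.44% were. The median log2 ratios per kb were 0.26 and 0.47, against 0.24 and 0.33 over all genes.

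Among 21 genes of Wnt ligands and their secretion, 10 had a mock peak, and the medians of those with a peak in both lists were 1.52 (9 genes) with *E. coli* vesicles and 1.67 (10 genes) with *V. cholerae* vesicles. *WNT10A*, a ligand, had 173.2 in mock, 585.1 with *E. coli* vesicles and 620.9 with *V. cholerae* vesicles, while per kb its log2 ratios were -0.21 and -0.09. *WLS*, which carries Wnt proteins to the cell surface, had 412.8, 472.1 and 480.3. Among 18 R-spondins and receptors, 9 of 11 were 1.5-fold higher with *E. coli* vesicles and 11 of 11 with *V. cholerae* vesicles, with medians of 0.82 and 1.00. *FZD1*, a Frizzled receptor, had 138.6, 292.5 and 364.3, and *FZD6*, another, 181.9, 225.1 and 279.0. This list kept most of the difference per kb, at medians of 0.56 and 0.71.

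All 13 genes of cytoplasmic signalling and the destruction complex had a peak in each list, and their medians of 0.56 and 0.54 were close to those of all genes. *AXIN1*, the relative of *AXIN2* in the destruction complex, had 92.4 in mock, 268.8 with *E. coli* vesicles and 289.0 with *V. cholerae* vesicles, but per kb its log2 ratios were -0.61 and -0.63. *CSNK1A1*, the kinase that first phosphorylates β-catenin, had 1094, 1136 and 1006. Of 8 nuclear cofactors, 4 and 5 were 1.5-fold higher (50% and 62.5% against 42.6% and 53.4% of all genes), the highest being *BCL9L*, a co-activator of β-catenin, with 285.8, 792.2 and 960.6. *CTNNBIP1*, which keeps β-catenin from TCF proteins, had 282.9, 372.3 and 383.5. Of 15 inhibitors only 5 had a peak in both lists of a pair with mock, and all 5 were 1.5-fold higher with MVs of either kind. *NKD1*, a Wnt target that inhibits Dishevelled, had 129.9, 207.1 and 358.9.

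Among 18 other Wnt target and crypt genes, 9 of 14 were 1.5-fold higher with *E. coli* vesicles and 10 of 14 with *V. cholerae* vesicles, with medians of 0.74 and 1.00, near those of the 10 genes. *EPHB3*, the relative of *EPHB2* with the same role along the crypt, had 213.6 in mock, 746.6 with *E. coli* vesicles and 952.2 with *V. cholerae* vesicles. *TNFRSF19*, a receptor of crypt stem cells, had 239.6, 254.6 and 170.6, and thus its lowest value with *V. cholerae* vesicles, as *RNF43* had.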

How the data were processed

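H3K4me3 ChIP sequencing and FAIRE sequencing of HCT8 cells gave 6 deposited peak lists; the 2 input samples were not used here. The authors aligned reads to hg19 and called peaks per library against input with HOMER. Versions in the submitters' processing notes are HOMER 4.7.2, Bowtie 1.1.2 and SAMtools 1.3.1, whereas the study's methods name Bowtie 2 and both MACS and HOMER. Per the file headers, peaks are at least 4-fold over input at a Poisson p of 0.0001. Each deposited list gives a normalized tag count, a signal per 10000000 tags that the authors computed, and the authors' tag count, fold over input (a ratio) and p-value. The last 3 were used only to describe peaks or to raise the threshold.

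Whole tags were recovered from normalized counts (largest distance from a whole number 0.0721). Peaks within 1000 bp of any start site of a gene were summed over 20090 protein-coding genes, and tags per kb are that sum over the called span. Genes were compared where both libraries have a peak. Longer called spans raise the sums, and a shallow library loses weak peaks. Where a longer peak covers separate peaks of another list, those more than 1000 bp from a start site are left out of the sums. The 10 genes and the pathway and marker lists were chosen with earlier results of these data known. The values at main start sites alone, the gaps there and the sequences shown were chosen after the values were seen. The upstream sequence of 1 gene is not reported here. Of the pathway lists, named genes are at most the highest and lowest ratio to mock for each MV treatment, with at least 20 tags in both libraries. Alternatives changed the window, transcripts, threshold, scaling, peak matching and a minimum of tags. The procedure was tested on simulated counts. Python 3.11.15, pandas 2.3.3, SciPy 1.17.1 and pysam 0.24.0 were used.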

Additional observations from a re-analysis of the deposited data

How the results depend on the processing

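With 1 library per group, all intervals cover counting error only, and PCR copies make the true error larger. No paired analysis was possible because no treatment has a second library. Other windows (500 and 2000 bp), basic protein-coding transcripts only and overlapping peaks only changed no direction of a gene at least 1.5-fold apart and no summary beyond its spread. Scaled to the tags in peaks or to the median gene, 3 genes were 1.5-fold higher in H3K4me3 with *E. coli* vesicles (12.2% and 11.1% of all genes). With *V. cholerae* vesicles 4 were (21.7% and 18.1%). *RNF43* was 1.5-fold lower with *V. cholerae* vesicles than in mock, at -0.70 and -0.79 (7.19% and 10.8%). It was also lower than with *E. coli* vesicles, at -0.62 and -0.67 (1.04% and 1.22%). For *E. coli* vesicles the median was 0.37 under the second scaling and the median per kb -0.37 under the first. The cause was not tested.

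In FAIRE, scaling to the tags in peaks shifts the log2 ratios by -2.39 (*E. coli* vesicles to mock), -0.97 (*V. cholerae* vesicles to mock) and 1.42 (*V. cholerae* to *E. coli* vesicles). With *E. coli* vesicles against mock, *EPHB2* turned to -0.29 and *TCF7L2* to -0.58 with this scaling, and *EPHB2* to -1.04, *TCF7L2* to -1.34 and *LGR5* to -0.015 when scaled to the median gene. The median of the genes was then 1.09, with 4 higher and 2 lower, where 27% and 32.7% of all genes were. The medians per kb were -0.92 and 0.14 under the first and second scaling. Against mock, 4 of 7 genes were higher with *V. cholerae* vesicles under either scaling (43.8% and 28.2% of all genes). Lower were 1 and 2 (19.9% and 31%). In this comparison *EPHB2* turned to -0.88 and -1.31, *TCF7L2* to -0.22 and -0.65 and *TCF7* to -0.18 (second scaling). The medians per kb were -0.31 and 0.12. Between *V. cholerae* and *E. coli* vesicles the medians were -0.47 and -0.25. At least 1.5-fold lower were 5 and 3 genes (30.6% and 22.8% of all genes), and 2 were higher (14.4% and 22.4%). *LGR5* turned to 0.94 and 1.16, *RNF43* to 0.88 and 1.11 and *TCF7L2* to 0.36 and 0.58, and the medians per kb to 0.67 and 0.031.

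At 8-fold over input or more, 2 (mock), 4 (*E. coli* vesicles) and 1 (*V. cholerae* vesicles) genes kept a FAIRE peak. Only 1 gene was then higher against mock with either kind of MVs and 1 lower between them, and the medians per kb were 1.53 for *V. cholerae* vesicles against mock and 0.0056 between MVs. This alternative leaves fewer peaks by construction. With at least 20 tags in both libraries, fewer genes remained. Of these, 3 genes were higher in FAIRE with *E. coli* vesicles and 2 with *V. cholerae* vesicles. For both alternatives the shares of all genes are not given here, so these counts do not set the member genes apart. Of 162 summary values under the alternatives, 134 held.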
